A study of Mus musculus with 6 samples.

Results

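The coagulation and plasminogen activation genes are 10 mouse genes that were chosen by name: F3, F7, F10, F13a1, F2r, Thbd, Procr, Plau, Plaur and Plat. All probe sets annotated to one of these genes alone were used, which gave 15 of the 45037 probe sets and 10 of the 18193 named genes on the array. The arrays were 1 of FL-Y after activation by an antibody against the lymphotoxin beta receptor, 1 of FL-Y, 2 of follicular dendritic cells (FDC) and 2 of bone marrow-derived dendritic cells (BMDC). FL-Y is an FDC-like line transformed with SV40, so both FL-Y arrays come from a single transformed line. FDC belong to the stroma of lymphoid follicles, where they display antigen to B cells, and had been grown in vitro; BMDC are antigen-presenting cells of the myeloid lineage. The labels give no strain, age or antibody dose, and do not tell whether arrays of the same cell type had separate biological origins. The p-values therefore measure only the spread between these arrays, which may be technical.

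Coagulation begins when tissue factor (F3), a membrane protein of stromal cells, binds factor VII (F7), and the complex activates factor X (F10), which in turn leads to thrombin. Thrombin makes fibrin, which the transglutaminase factor XIII (A subunit, F13a1) crosslinks, and it signals to cells through the protease-activated receptor PAR1 (F2r). Thrombomodulin (Thbd) and the endothelial protein C receptor (Procr) turn thrombin toward activating protein C, an anticoagulant. The plasminogen activators of urokinase type (Plau, with its receptor Plaur) and of tissue type (Plat) make plasmin, which dissolves fibrin.

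Tissue factor and its plasma partners were on opposite sides: FDC had the receptor F3, and BMDC had the proteases F7 and F10. Of the 10 genes, 4 rose in FDC relative to BMDC (F3, F2r, Thbd and Plat) and 3 fell (F7, F10 and F13a1) at an adjusted p under 0.05 (limma, adjusted over 27022 probe sets). Procr, Plau and Plaur did not pass. Among all probe sets tested, 4.84% were higher and 4.09% lower in FDC, 8.93% in all, and 11.3% of the 12750 named genes were called when each was read by its brightest probe set. The median absolute log2 difference was 5.10 for the 10 genes and 0.60 for all probe sets tested, while the signed medians were -0.28 and -0.05. The members were chosen with earlier results of these data known, so these shares and medians are descriptive and do not test the pathway. All 15 probe sets passed the filter on low values, which takes the mean over both cell types, so a gene near background in 1 cell type passed through the other.

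Upstream sequences are shown for F3, F2r, Procr and Plaur, which share a motif, and for F7 and F10, which lack it. F13a1, which also fell in FDC, lacks it too and is not shown, and Procr and Plaur did not pass the test. A link between the motif and the direction of change was not tested. Promoters of 7 of the 10 genes were found in the RefSeq table (build GRCm38.p6), those of F3, F7, F10, F13a1, F2r, Procr and Plaur; Thbd, Plau and Plat were not matched. Each window runs from 250 bases before to 50 bases after the start site and is written 5′ to 3′ on the gene's strand. Capitals mark matches on either strand to the AP-1 motif TGANTCA or the SP1 motif GGGCGG, whose matches overlap in Plaur.
F3 (chr3:121723287-121723586, plus strand): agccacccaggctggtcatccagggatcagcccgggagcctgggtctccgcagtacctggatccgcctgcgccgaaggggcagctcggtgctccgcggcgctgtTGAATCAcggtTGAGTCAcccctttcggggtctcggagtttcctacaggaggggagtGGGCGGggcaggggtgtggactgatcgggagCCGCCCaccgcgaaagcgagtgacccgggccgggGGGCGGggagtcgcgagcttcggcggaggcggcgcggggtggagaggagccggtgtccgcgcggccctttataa
F2r (chr13:95618417-95618716, minus strand): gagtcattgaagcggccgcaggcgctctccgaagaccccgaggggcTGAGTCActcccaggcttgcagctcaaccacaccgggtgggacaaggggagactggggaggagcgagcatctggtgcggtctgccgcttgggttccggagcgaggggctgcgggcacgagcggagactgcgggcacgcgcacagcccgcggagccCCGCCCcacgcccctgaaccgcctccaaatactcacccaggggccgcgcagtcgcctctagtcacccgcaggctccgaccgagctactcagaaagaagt
Procr (chr2:155750967-155751266, plus strand): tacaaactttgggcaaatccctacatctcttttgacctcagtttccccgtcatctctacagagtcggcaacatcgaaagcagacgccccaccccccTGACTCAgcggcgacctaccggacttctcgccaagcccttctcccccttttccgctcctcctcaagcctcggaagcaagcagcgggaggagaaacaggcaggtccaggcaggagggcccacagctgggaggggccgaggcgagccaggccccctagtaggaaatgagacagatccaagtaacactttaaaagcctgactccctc
Plaur (chr7:24462233-24462532, plus strand): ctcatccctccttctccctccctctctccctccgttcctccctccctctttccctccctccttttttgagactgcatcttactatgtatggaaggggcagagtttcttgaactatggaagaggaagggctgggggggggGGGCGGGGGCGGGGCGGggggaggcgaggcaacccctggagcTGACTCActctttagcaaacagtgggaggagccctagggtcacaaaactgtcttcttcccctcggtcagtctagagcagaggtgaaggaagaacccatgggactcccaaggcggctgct
F7 (chr8:13025784-13026083, plus strand): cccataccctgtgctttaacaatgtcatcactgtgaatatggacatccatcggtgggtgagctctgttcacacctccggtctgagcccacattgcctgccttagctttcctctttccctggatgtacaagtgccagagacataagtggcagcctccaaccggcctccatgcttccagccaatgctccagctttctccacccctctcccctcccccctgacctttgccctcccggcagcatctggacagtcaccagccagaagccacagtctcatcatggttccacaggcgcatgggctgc
F10 (chr8:13037058-13037357, plus strand): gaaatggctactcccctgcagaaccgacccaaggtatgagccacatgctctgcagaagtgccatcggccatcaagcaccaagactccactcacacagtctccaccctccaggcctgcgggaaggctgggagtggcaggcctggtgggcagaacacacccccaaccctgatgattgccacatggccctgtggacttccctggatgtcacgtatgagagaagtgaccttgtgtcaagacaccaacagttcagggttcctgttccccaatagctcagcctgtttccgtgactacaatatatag

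The AP-1 motif was found in the windows of 4 of these 7 genes, F3, F2r, Procr and Plaur, and in 7.81% of all 32851 promoter windows of the table. F3 held it at 146 and at 135 bases before the start site, F2r at 204, Procr at 154 and Plaur at 69. The SP1 motif was in F3, F2r and Plaur, and in 35.7% of all windows. The PU.1 motif GAGGAAGT, for a myeloid transcription factor, was in 1 of the 2 F13a1 windows, and in 3.20% of all. The CRE motif TGACGTCA (1.79% of all windows) and the kappa B consensus (8.46%) had no match in these windows. A match is a run of letters and does not show that a factor binds there, and no factor was measured.

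F3 had signals of 2448 and 3654 in FDC, against 56.1 and 88.3 in BMDC. The groups were far apart and the FDC arrays were close to each other. The log2 difference was 5.15 ± 0.44 (SE; limma adjusted p = 0.00435), or 35.4-fold after an offset of 14.2 signal units was added to each value, as for all folds and log2 differences here. The first arrays of each cell type differed by 5.13 and the second by 5.16.

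F7 had signals of 12.4 and 110.6 in FDC, against 9685 and 6912 in BMDC. The lower FDC value was under the 20th percentile of its array, a mark of background level used here that is not a measured limit of detection. The log2 difference was -7.15 ± 0.79 (SE; limma adjusted p = 0.00794), and its size depends on the offset. F10, on the brightest of its 3 probe sets, had 25.4 and 59.5 in FDC, against 18739 and 15772 in BMDC. Its log2 difference of -8.32 ± 0.46 (SE; limma adjusted p = 0.00264) ranked 50 by size among the 27022 probe sets tested. The other F10 probe sets differed by -6.87 ± 0.37 and -5.68 ± 0.39 (SE), both called lower, with FDC signals of 6.0 to 10.6 that were all under the 20th percentile. F7, F10 and Proz, which encodes the cofactor protein Z, follow each other in this order on chromosome 8 in the RefSeq gene table. Proz had signals of 3.3 and 18.5 in FDC, against 9.6 and 45.9 in BMDC, and lay below the filter.

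F13a1 was at 70.8 and 48.1 in FDC, against 1978 and 3034 in BMDC. The groups did not overlap, and the log2 difference was -5.08 ± 0.43 (SE; limma adjusted p = 0.00435). F13a1 is a gene of monocytes, macrophages and megakaryocytes. Of 7 myeloid and dendritic markers all 7 were lower in FDC, and their summed signal was 1736 and 1713 in FDC against 216879 and 167393 in BMDC. Of 7 platelet and megakaryocyte markers 6 were lower in FDC and Gp1bb did not pass, and their summed signal was 1170 and 1277 in FDC against 78192 and 44955 in BMDC. Among them Pf4, platelet factor 4, had 322 and 208 in FDC against 37028 and 24616 in BMDC. The part of either cell type in the F7, F10 and F13a1 differences was not tested. In RNA from a whole culture, fewer cells of a type and less RNA per cell cannot be told apart.

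**Figure D1:**
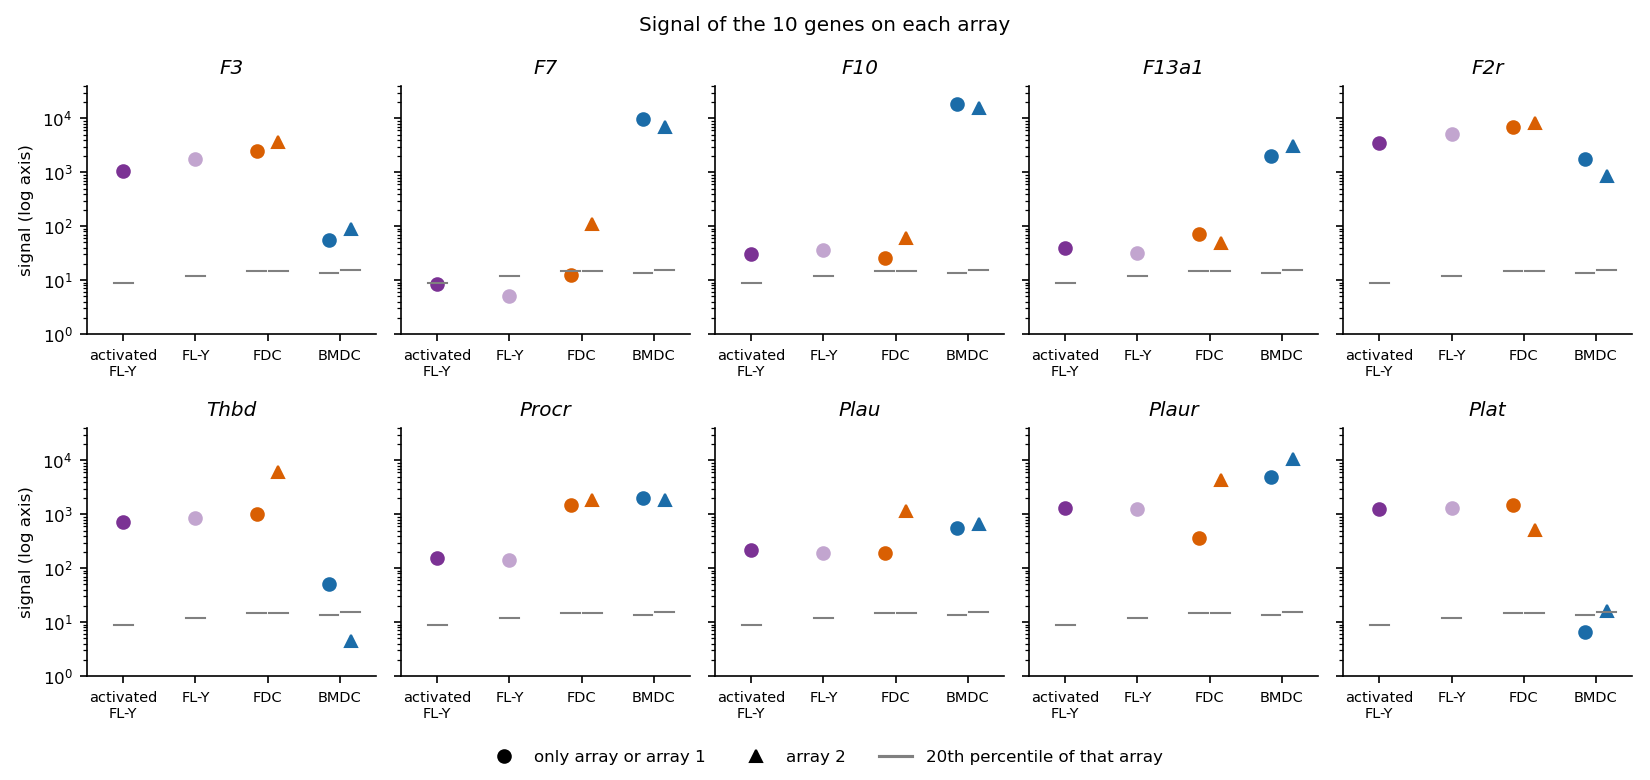
Signal of each gene's brightest probe set on the 6 arrays (log axis), with activated FL-Y, FL-Y, FDC and BMDC from left to right; circles are array 1 or the only array, triangles array 2, and grey bars the 20th percentile of that array. F3, F2r, Thbd and Plat stand higher in FDC and in both FL-Y arrays than in BMDC, F7, F10 and F13a1 stand high in BMDC, and Procr is low in both FL-Y arrays.

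F2r, the receptor through which thrombin signals, had 6795 and 8354 in FDC, against 1734 and 855 in BMDC. It stood above the 20th percentile on every array, and the log2 difference of 2.61 ± 0.49 (SE; limma adjusted p = 0.0347) was the smallest of the 7 that passed. Its dimmer probe set gave 2.29 ± 0.44 (SE; limma adjusted p = 0.0373). The F2r call did not hold when BMDC array 2 (2.11, limma adjusted p = 0.121), FDC array 1 (2.76, 0.0786) or FDC array 2 (2.47, 0.0946) was left out, nor with a floor in place of the offset (limma adjusted p = 0.0640), without the filter (0.0776) or with a replicate block (0.0548).

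Thbd had 1029 and 5978 in FDC, against 50.7 and 4.4 in BMDC. The FDC arrays differed 5.81-fold, and the lower BMDC value was under the 20th percentile of its array. The log2 difference was 6.17 ± 1.02 (SE; limma adjusted p = 0.0242), at 4.01 for the arrays numbered 1 and 8.33 for those numbered 2. The Thbd call was lost without BMDC array 2 (5.27, limma adjusted p = 0.0685), with a floor in place of the offset (7.38, 0.0690) and with a replicate block (0.0577). Thbd is known from endothelial cells, and of 8 endothelial markers 5 were tested, and by limma 0 rose in FDC and 1, Pecam1, fell (1 and 1 at an unadjusted p under 0.05). The 8 markers summed to 532 and 576 in FDC, against 1199 and 1326 in BMDC. The gene higher at that unadjusted p was Tek, with 258 and 114.5 in FDC against 56.9 and 3.7 in BMDC (log2 difference 2.39, limma adjusted p = 0.143). Pecam1 stood at 11.2 and 28.2 in FDC against 620 and 632 in BMDC, Tie1 at 2.0 and 3.7 against 198 and 154, and Cdh5 at 5.6 and 57.2 against 6.6 and 72.6. Egfl7 had 195 and 145 in FDC against 163 and 281 in BMDC. The part of endothelial cells in the Thbd difference was not tested.

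Procr had 1480 and 1863 in FDC, against 2043 and 1842 in BMDC. The ranges overlapped, and the log2 difference was -0.22 ± 0.38 (SE; limma adjusted p = 0.782), with a 95% interval from -1.18 to 0.74.

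Of the plasminogen activators only Plat passed the test. It had 1466 and 504 in FDC, against 6.6 and 16.4 in BMDC. The BMDC value of 6.6 lay under the 20th percentile of its array, and that of 16.4 just above its own, 15.4, and the log2 difference was 5.12 ± 0.61 (SE; limma adjusted p = 0.0100). A second Plat probe set, with 100.3 and 57.4 in FDC against 51.0 and 18.4 in BMDC, differed by 0.97 ± 0.52 (SE; limma adjusted p = 0.341), so the probe sets of this gene disagree in size. With both averaged, the difference was 3.05.

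Plau had 196 and 1173 in FDC, against 565 and 675 in BMDC. The BMDC values lay between those of the FDC arrays. The log2 difference was -0.34 ± 0.85 (SE; limma adjusted p = 0.856), with a 95% interval from -2.48 to 1.80, and it was 0.91 without FDC array 1. The second Plau probe set differed by -1.02 ± 0.77 (SE; limma adjusted p = 0.498). Plaur had 366 and 4349 in FDC, against 4927 and 10853 in BMDC. The ranges did not overlap, yet the log2 difference of -2.51 ± 1.19 (SE; limma adjusted p = 0.289) had a 95% interval from -5.50 to 0.49. Without FDC array 2 it was -4.27 and passed (limma adjusted p = 0.0298), and without FDC array 1 it was -0.75.

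**Figure D2:**
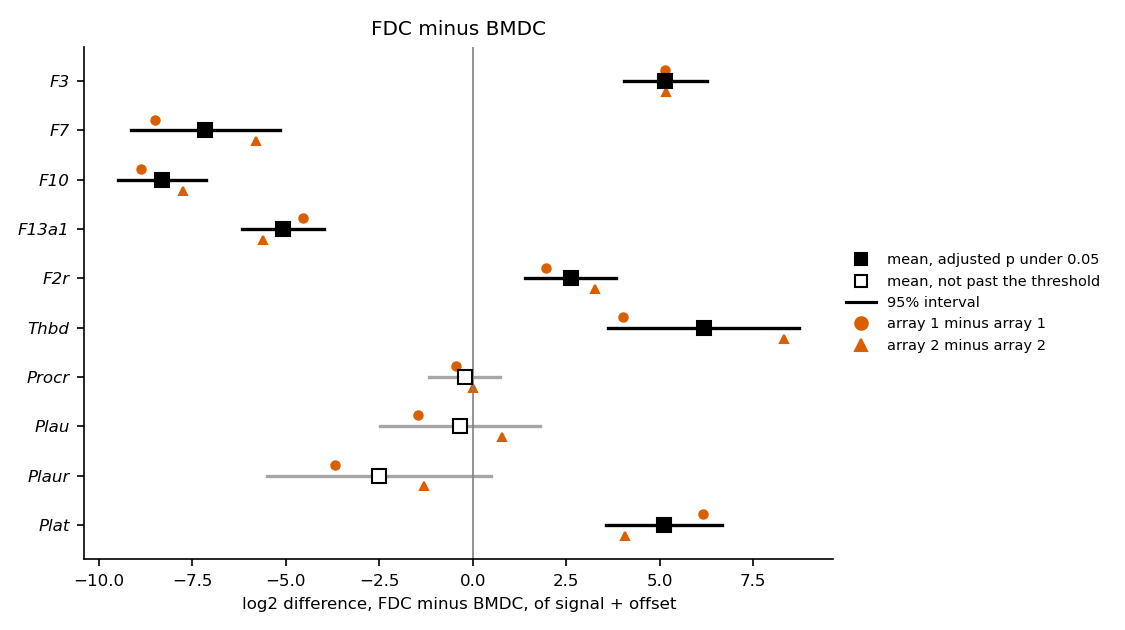
Log2 difference in signal plus offset, FDC minus BMDC, for the 10 genes; squares are means of 2 arrays each (filled where the limma adjusted p is under 0.05), lines are 95% intervals, circles the differences between arrays numbered 1 and triangles those between arrays numbered 2. F3 has the same difference in both pairs (5.13 and 5.16), while Thbd spans 4.01 to 8.33 and Plau lies on both sides of 0.

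The FDC arrays differed from each other in some of these genes far more than in others. Plaur was 11.9-fold higher in signal on FDC array 2 than on array 1, a log2 gap of 3.52 that exceeded the gap of 99.3% of the probe sets tested. Thbd (2.52), Plau (2.50) and F7 (2.23) were also higher on FDC array 2, with gaps above those of 97.6%, 97.6% and 96.2% of probe sets. Plat was lower there by a log2 gap of -1.51. F3, F2r, Procr and F13a1 had gaps of 0.58, 0.30, 0.33 and -0.45. Serpinb2, the plasminogen activator inhibitor PAI-2, was at 274 on FDC array 1 and 4325 on FDC array 2; it was singled out after its values were seen. The myeloid markers summed to 1736 and 1713 on FDC arrays 1 and 2. Within that list Tyrobp (70.8 and 219), H2-Aa (140 and 231), Cd74 (356 and 542) and Csf1r (168 and 243) were higher on FDC array 2, and Ptprc (823 and 423), Itgax (125 and 20.9) and Itgam (53.8 and 34.1) were lower there. The 6 mast cell markers summed to 7125 and 11107, the 4 T cell markers to 1767 and 1049, and the 6 stromal markers to 175119 and 94081. The part of myeloid, mast, T and stromal cells in these gaps was not tested. The sum of the labelling control probe sets was 8442 on FDC array 1 and 15710 on FDC array 2, and 9630 and 27080 on the BMDC arrays.

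**Figure D3:**
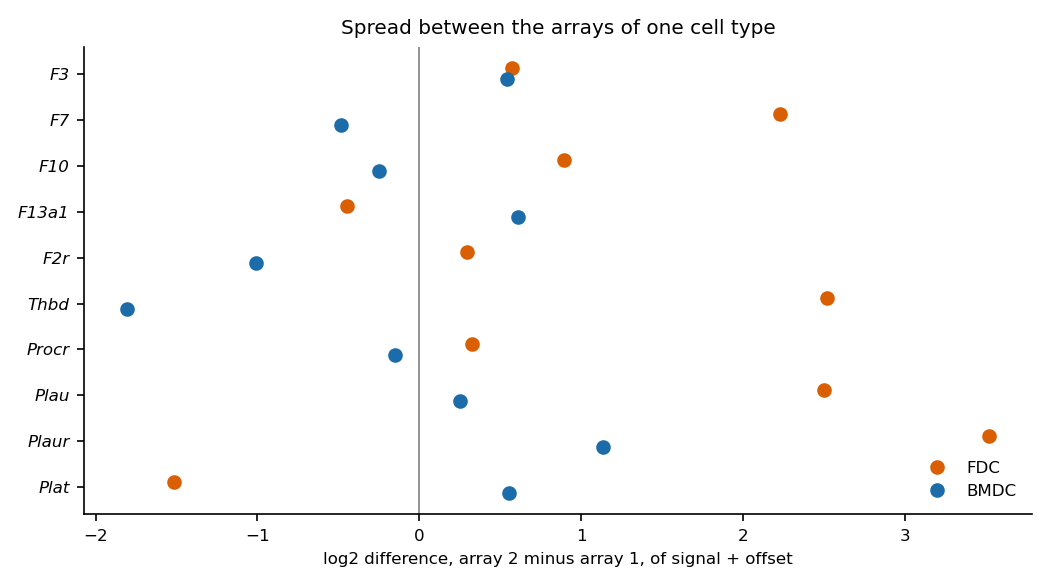
Log2 difference in signal plus offset between array 2 and array 1 of the same cell type, for FDC (orange) and BMDC (blue). In FDC the gap is 3.52 for Plaur and between 2.23 and 2.52 for Thbd, Plau and F7, while F3, F2r, Procr and F13a1 stay within 0.58 in either direction.

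Mast cell and T cell transcripts in the FDC cultures bear on the label of these samples. Of 6 mast cell markers 4 rose in FDC, with summed signals of 7125 and 11107 in FDC against 3072 and 666 in BMDC. Cpa3 and Kit did not pass. Cpa3 had 1449 and 2968 in FDC against 2621 and 396 in BMDC, and Kit was lower, at 44.3 and 107.8 against 155 and 121. Of 4 T cell markers 3 rose and Cd3e did not pass, with sums of 1767 and 1049 in FDC against 188 and 35.1 in BMDC. Of 6 stromal markers 5 rose in FDC and Thy1 did not pass. Of 7 FDC markers 0 rose by limma and 3 fell, Fcgr2b, Mfge8 and Clu (1 and 3 at an unadjusted p under 0.05). All 3 were bright in BMDC. Mfge8 was also bright in FDC, at 5146 and 6484 against 27358 and 25082 in BMDC. Fcgr2b had 199 and 198 in FDC against 32488 and 23877 in BMDC, and Clu 222 and 71.2 against 3476 and 5286. Vcam1 had 6959 and 5764 in FDC against 108 and 875 in BMDC (log2 difference 4.27, limma adjusted p = 0.0566), and Cxcl13 had 1288 and 64.5 against 50.9 and 36.4 (2.48, limma adjusted p = 0.331). Madcam1 was at 107.5 and 69.6 in FDC against 80.1 and 76.3 in BMDC. Cr2, a defining FDC marker, was at 119.5 and 4.1 in FDC against 59.1 and 71.1 in BMDC, and at 41.9 in FL-Y.

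Relative to the mean of the cultured FDC, FL-Y differed most in Procr, and by less than 2-fold in F3, F10, F13a1, F2r, Plaur and Plat. Plaur passed 2-fold against each FDC array alone, in opposite directions, and F3 and Plat passed it against FDC array 2 alone. Each FL-Y condition has a single array, so the differences were not tested, and a gene was counted at 2-fold or more. FL-Y was lower than the mean of FDC in 4 of the 10 genes (F7, Thbd, Procr and Plau) and higher in 0, where 21.2% of all probe sets tested were lower and 11.6% higher. The median difference was -0.70 for the 10 genes and -0.15 for all probe sets tested. The count was 7 against FDC array 2 alone (6 lower and 1 higher) and 2 against FDC array 1 alone (1 lower and 1 higher). F7 was under 2-fold with an offset at the 40th percentile (-0.84), and Plau after rescaling to one median (-0.92) or with its probe sets averaged (-0.75). On the second Plau probe set FL-Y, at 253, lay between the FDC values of 133.5 and 623.

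Procr was at 144.5 in FL-Y, against 1480 and 1863 in FDC. FL-Y lay far under both FDC arrays, which were close to each other, and the log2 difference of -3.40 was as low in 1.58% of the probe sets tested. It was -3.56 and -3.24 against the single FDC arrays. Thbd was at 856 in FL-Y, against 1029 and 5978 in FDC, and Plau at 188, against 196 and 1173. In both genes FL-Y was near FDC array 1, so the differences of -1.52 and -1.30 came with gaps of 2.52 and 2.50 between the FDC arrays. F7 was at 5.0 in FL-Y, under the 20th percentile. F3 was at 1786 in FL-Y, against 2448 and 3654 in FDC, and F2r at 5207, against 6795 and 8354. Both were under both FDC arrays, at less than 2-fold from the FDC mean (log2 differences of -0.74 and -0.53). Plaur at 1267 and Plat at 1294 lay between the values of the FDC arrays, as did F10 at 36.1. Against FDC array 1 and FDC array 2 alone, Plaur differed by 1.75 and -1.77, Plat by -0.18 and 1.34, and F3 by -0.45 and -1.03. F13a1 was at 31.7, under both FDC arrays.

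Against BMDC, all 10 genes differed in FL-Y by at least 2-fold, 4 higher (F3, F2r, Thbd and Plat) and 6 lower, where 16.2% of all probe sets tested were higher and 24% lower. This comparison shares the BMDC arrays with that of FDC, so the values are given side by side. F3 differed by 4.41 in FL-Y and 5.15 in FDC, Plat by 5.70 and 5.12, F2r by 2.08 and 2.61, and Thbd by 4.65 and 6.17. F7 differed by -8.74 in FL-Y and -7.15 in FDC, F10 by -8.42 and -8.32, and F13a1 by -5.75 and -5.08. Procr differed by -3.62 in FL-Y and -0.22 in FDC. From high to low on the deposited scale, the order was FDC, FL-Y, BMDC for F3 and F2r, and BMDC, FDC, FL-Y for F13a1. After rescaling to one median, FL-Y minus FDC was -0.33 for F3, -0.12 for F2r and -0.36 for F13a1. FL-Y stayed under the FDC mean in these genes, by a smaller difference that was least in F2r. The size of these differences therefore depends on the scaling. For Procr, FL-Y was lowest and FDC and BMDC were not apart. Thbd was lowest and F7 highest in BMDC. The order of FL-Y and FDC in F10, Plaur and Plat was within the spread of the FDC arrays. In Thbd and Plau FL-Y lay just under the lower FDC array, and F7 in FL-Y and on FDC array 1 lay under the 20th percentile, so these are given no order either.

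Activation through the lymphotoxin beta receptor, which signals to NF-kB, left the brightest probe set of each gene within 2-fold on single arrays. In none of the 10 genes did the activated FL-Y array differ from the FL-Y array by 2-fold, where 3.51% of all probe sets tested were higher and 5.96% lower. With the offset added, none of the 15 probe sets did. In signal without the offset, the dimmer F2r and Plat probe sets passed 2-fold. So did the dimmer F10 probe sets, which lay under the 20th percentile. F3 was at 1061 in activated FL-Y, against 1786 in FL-Y (log2 difference -0.74). F2r was at 3524 in activated FL-Y, against 5207 (-0.56), and at 872 against 1746 on its dimmer probe set (-0.99). Thbd was at 736 in activated FL-Y, against 856 in FL-Y. Plau was at 215, against 188, on its brighter probe set and at 138, against 253, on the other, so its probe sets disagree in direction. Plaur was at 1337 in activated FL-Y against 1267 in FL-Y, Plat at 1232 against 1294 and Procr at 153.0 against 144.5. The dimmer Plat probe set was at 18.5 in activated FL-Y against 49.3 in FL-Y (-0.96). F7 was at 8.4 against 5.0, F10 at 31.1 against 36.1 and F13a1 at 39.3 against 31.7. The median signal was 47.9 on the activated FL-Y array and 61.1 on the FL-Y array. Rescaling the arrays to one median moved the median difference of all probe sets tested by 0.33, and F3 then differed by -0.40, F2r by -0.21 and Thbd by 0.13.

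**Figure D4:**
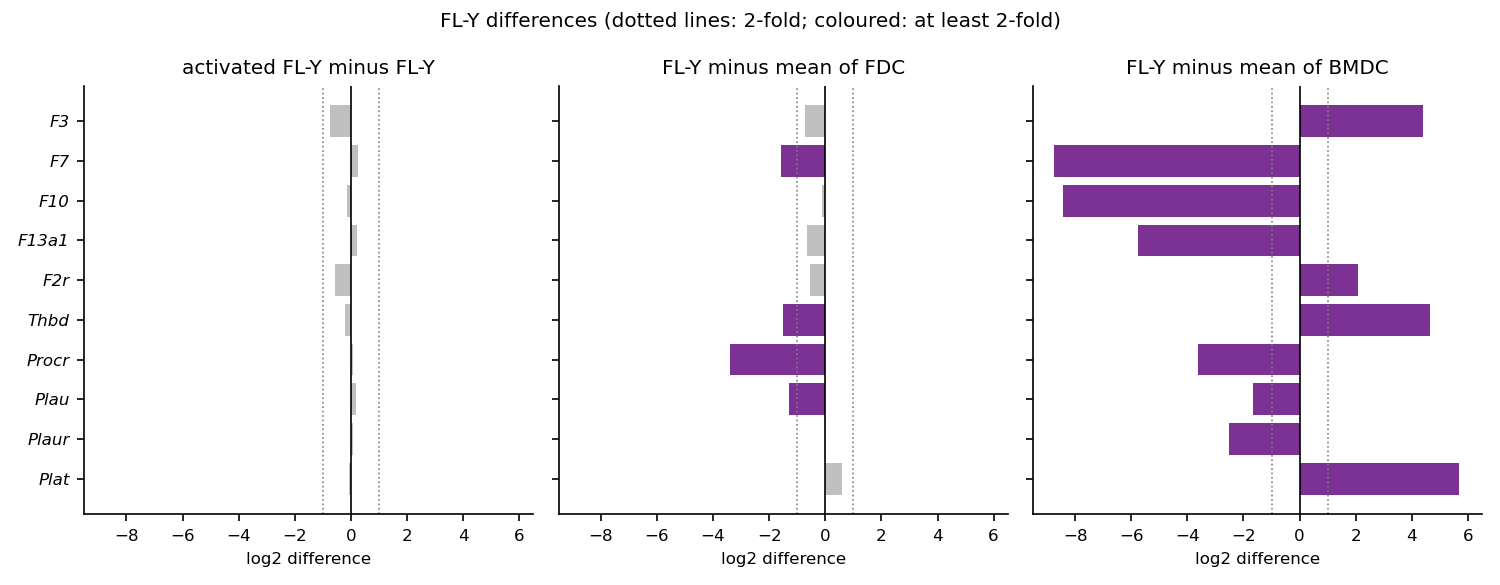
Log2 difference in signal plus offset of the 10 genes for activated FL-Y minus FL-Y, FL-Y minus the mean of FDC, and FL-Y minus the mean of BMDC; dotted lines mark 2-fold and coloured bars reach it. No bar reaches 2-fold on activation, Procr (-3.40) is the longest bar against FDC, and all 10 reach it against BMDC.

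Other genes of the pathway were read from 5 lists. Of 13 coagulation factors and fibrinogen chains, 10 lay below the filter, among them the fibrinogen chains Fga, Fgb and Fgg. Of the 3 tested, 2 fell in FDC and 0 rose by limma (2 and 0 at an unadjusted p under 0.05), with F8 not called. Vwf, which carries factor VIII and tethers platelets, had 2.1 and 7.0 in FDC against 3753 and 1180 in BMDC (log2 difference -6.83 ± 0.63, SE; limma adjusted p = 0.00507). F5, the cofactor of factor X, had 15.6 and 44.8 in FDC against 868 and 374 in BMDC (-3.80 ± 0.60, SE; limma adjusted p = 0.0211). The F5 call did not hold when BMDC array 1 (limma adjusted p = 0.0655) or FDC array 1 (0.0612) was left out.

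Of 9 coagulation inhibitors and protein C genes, 5 were tested, 2 rose in FDC and 0 fell by limma (3 and 0 at an unadjusted p under 0.05, with Pros1 at 2.13 ± 0.72, SE). Tfpi, the inhibitor of the tissue factor and factor VII complex, had 3258 and 3826 in FDC against 190 and 134 in BMDC, and 2971 in FL-Y. Its log2 difference was 4.35 ± 0.40 (SE; limma adjusted p = 0.00489). Tfpi2, a related Kunitz inhibitor, had 6807 and 9761 in FDC against 124.5 and 89.7 in BMDC (6.09 ± 0.42, SE; limma adjusted p = 0.00303). In FL-Y Tfpi2 was at 147.0, a log2 difference of -5.66 from FDC, while Tfpi differed by -0.25.

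Of 7 measured genes for plasminogen and its regulators, 5 were tested, 1 rose in FDC and 0 fell by limma (1 and 2 at an unadjusted p under 0.05); the other 3 genes of that list are not analysed here. Lrp1, an endocytic receptor that clears protease complexes, had 7333 and 6932 in FDC against 2208 and 1230 in BMDC (2.10 ± 0.45, SE; limma adjusted p = 0.0497). Lrp1 kept its call in 3 of 12 alternative settings, but 2 of these left its own values unchanged. They were the fit of all 6 arrays, which repeats the main fit, and the mean of probe sets, taken for members only. The other was the offset at the 40th percentile (limma adjusted p = 0.0230). Its call was lost whichever array was left out (log2 differences of 1.68 to 2.52). Plg, plasminogen itself, was at 31.8 and 5.7 in FDC against 17.1 and 4.9 in BMDC, below the filter. Of 2 other protease-activated receptors measured, F2rl2 (PAR3) was tested and fell, with 114.7 and 60.3 in FDC against 1001 and 1888 in BMDC (-3.83 ± 0.52, SE; limma adjusted p = 0.0142). Without BMDC array 2 F2rl2 just missed the threshold (limma adjusted p = 0.0514). Of 3 vitamin K cycle genes 0 passed by limma (2 higher at an unadjusted p under 0.05), with Vkorc1 at 2.36 ± 0.58 (SE; limma adjusted p = 0.0745) and Ggcx at 1.50 ± 0.38 (SE; limma adjusted p = 0.0821).

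**Figure D5:**
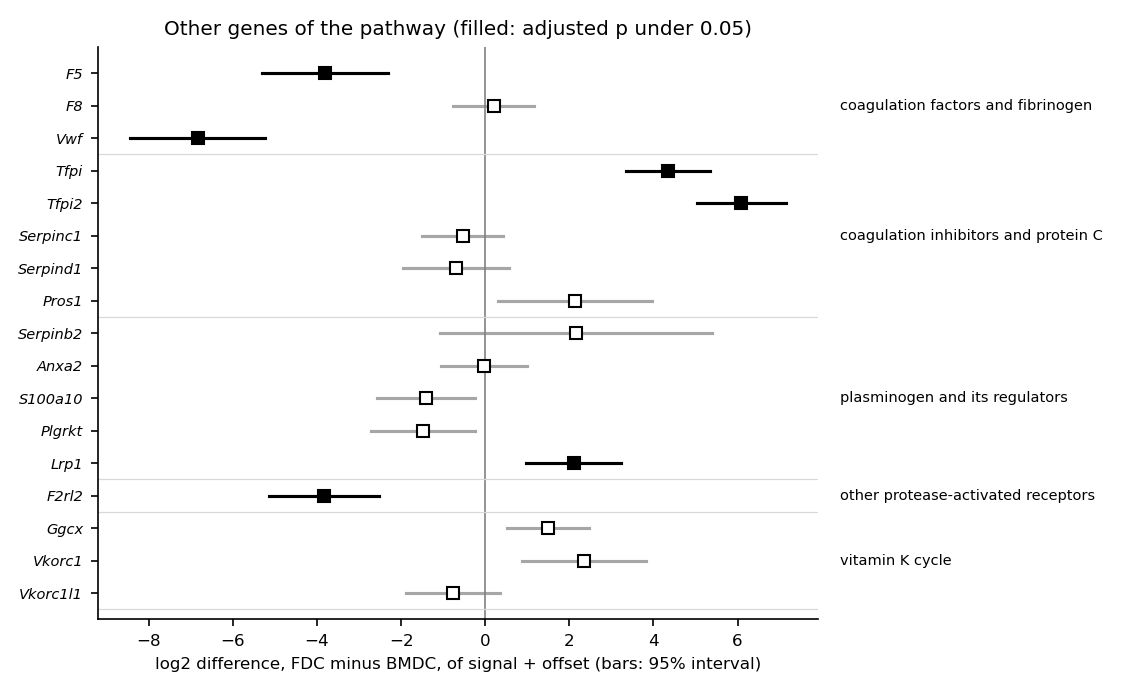
Log2 difference in signal plus offset, FDC minus BMDC, for the tested genes of the 5 pathway lists; squares are means (filled where the limma adjusted p is under 0.05) and lines 95% intervals. Tfpi, Tfpi2 and Lrp1 rose, and F5, Vwf and F2rl2 fell.

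The genes with the nearest patterns to the members were sought among 12740 other named genes, by the mean absolute difference of the log2 values centred on each gene's own mean over the 6 arrays. The nearest to F3 were Ehd2 (0.18) and Col16a1 (0.18), and to F2r Ociad2 (0.14) and Fam161a (0.14). The nearest to F7 were Blnk (0.31) and Ppbp (0.33), to F10 Myo1f (0.26) and Cfp (0.36), and to F13a1 H2-DMa (0.27) and Il1b (0.29). Procr was nearest to H2-D1 (0.18) and Dglucy (0.19), Thbd to Adamts6 (0.51) and Pdk4 (0.58), and Plat to Tead1 (0.27) and Golm2 (0.28). Plau was nearest to Tmem67 (0.16) and Tppp3 (0.22), and Plaur to Gm31718 (0.26) and Cyp2s1 (0.28). With 6 arrays of 4 kinds of sample, many genes share such a pattern, and the arrays of each cell type are common to all of them.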

How the data were processed

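Total RNA labelled with biotin was hybridised to 1 array per sample, per the labels' protocols. The deposited values are 1 intensity per probe set on a linear scale. The authors had scaled them to one target, since the means trimmed by 2% per tail were 500.003 to 500.004 on all 6 arrays. The program used is not given in the sources used here, and no detection call was used. Probe sets were named through the platform annotation (34945 with 1 gene, 932 with several, 9160 unnamed), and 64 control probe sets were left out. An offset of 14.2, the median of the arrays' 20th percentiles (8.7 to 15.4), was added to each signal before log2. Probe sets above the 40th percentile of mean level in FDC and BMDC (a signal of 46.4) were tested with limma 3.58.1 in R 4.3.3, two-sided, with Benjamini-Hochberg adjustment over all 27022 and a threshold of 0.05 (2 residual and 3.35 prior degrees of freedom). With 2 arrays in each group, exact permutation gives no p below 0.333 and was not used. The brightest probe set over the 6 arrays stands for a gene. All 10 members are named, with called genes of 5 pathway lists and the 2 nearest genes to each member. The members, lists and markers were chosen with earlier results of these data known. The alternatives tried were another offset, a floor, 2 other scalings, no filter, all 6 arrays in the fit, a replicate block, the mean of a gene's probe sets and leaving out each array. The test was checked on simulated data. The number of arrays limits the precision.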

Additional observations from a re-analysis of the deposited data

How the results depend on the processing

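F3, F7, F10, F13a1 and Plat kept their direction in all 12 alternative fits of FDC against BMDC. They kept their call in every fit with both arrays of each cell type, with limma adjusted p between 0.000420 and 0.0339. Some of these fits could not change a call. The fit that added the FL-Y arrays repeated the main values. The mean of probe sets left the differences of F3, F7 and F13a1 unchanged, as each has 1 probe set. The count of members called stayed between 5 and 7. F2r and Thbd lost their call without an offset and a floor at a signal of 3.3 (limma adjusted p = 0.0640 and 0.0690) and in the fit with a replicate block (5 members called; 0.0548 and 0.0577), and F2r also without the filter (0.0776). The replicate numbers are not known to pair the arrays: the gaps between the arrays correlated at 0.199 across probe sets, and the block gave 2392 calls beside 2413. With the offset at the 40th percentile, the calls over all probe sets rose to 3119. Calls over all probe sets were 1454 without an offset, 1433 without the filter and 1312 to 2090 with 1 array left out. With 1 array left out, Plau ranged from -1.59 to 0.91 and turned positive without FDC array 1; the lone remaining array is assumed to vary like the other group's. The number of members at 2-fold between FL-Y and FDC was 2 to 7 with 1 FDC array left out. Rescaling to one median moved the median of all probe sets by 0.37 for FL-Y minus FDC and 0.36 for FL-Y minus BMDC, and quantile normalization by 0.15 for each. The cause of these changes was not tested.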
